A study of Mus musculus with 6 samples.

Results

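The data cover 10 genes of the Notch pathway in mouse keratinocytes that express the v-ras-Ha oncogene, with and without a block of the interleukin-1 (IL-1) receptor. They were the 4 receptors Notch1, Notch2, Notch3 and Notch4, the ligands Jag1, Jag2 and Dll1, the nuclear factor Rbpj, and the target genes Hes1 and Hey1. A gene was taken where the array gave its name to a probe, and every such probe was used. This gave 9 of the 10 genes and 11 probes, and Rbpj, which the array design lists under its older name Rbpsuh, was found through its RefSeq accession. The 10 genes had 12 probes on 30 spots, among 27573 gene names and 41174 probes in all.

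The cells were primary keratinocytes from the epidermis of newborn wild type mice, isolated together with hair follicle buds. All cultures were transduced with v-ras-Ha, by adenovirus according to the labels, at 10 viral particles per cell, so the controls carry the oncogene too. Anakinra, a recombinant IL-1 receptor antagonist, was given to 3 cultures at 5 ug/ml, starting 5 hours after transduction, and 3 cultures had PBS. The culture lasted 3 days more, and after 2 of them the antagonist was renewed. The design asks what IL-1 receptor signalling contributes to gene expression in ras-expressing keratinocytes. The labels name neither the promoter that drives the oncogene nor separate animals behind the cultures, so the p-values cover no more than the spread among these cultures, and that may be technical.

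Notch receptors are cut when a Jagged or Delta-like ligand on a neighbouring cell binds them. The released intracellular domain enters the nucleus, joins the DNA-binding protein RBPJ and switches on target genes, among them repressors of the Hes and Hey families. In the epidermis, Notch signalling is known for its part in the step from the basal layer to the differentiating upper layers.

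Each probe's processed intensity was taken as a log2 value relative to its array's 75th percentile, called the scaled log2 signal, and a change is Anakinra minus PBS on that scale. Signals of different probes are not compared with each other, because probes differ in how well they bind. Between 55.6% and 86.5% of spots were well above background on the 6 arrays, and Anakinra 2 had the most. The correlation between arrays was 0.995 or more in PBS, and in Anakinra it was lowest, 0.957, between Anakinra 1 and Anakinra 2. Slide 1 held PBS 2, PBS 3 and Anakinra 1, and slide 2 held PBS 1, Anakinra 2 and Anakinra 3, so each slide gives a comparison of its own. All 8 keratinocyte markers listed, Krt5 and Krt14 among them, were well above background on every array, and none passed the test. Of their changes 4 were positive and 4 negative. The groups did not overlap in 3 of the 8, Cdh1 at 0.21, Dsp at 0.20 and Perp at 0.22, against 26.1% of all genes tested. The summed linear signal of the 8 markers, relative to the 75th percentile, was 1266 to 1425 in PBS and 1245 to 1359 in Anakinra. Most of that sum was Krt5 and Krt14.

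None of the 10 Notch genes passed the test between Anakinra and PBS, against a background of 1.77% of the 16495 genes tested (limma, Benjamini-Hochberg adjusted p under 0.05 over all genes). Counted by direction, 0 were higher and 0 were lower in Anakinra, against 0.97% and 0.8% of all genes. None of their 12 probes passed either, against 1.11% of 25013 probes. The changes nearest to the threshold were a lower signal of the ligand gene Jag2 and a higher signal of the receptor gene Notch3, both of about the same size. At an unadjusted p under 0.05 were 2 of the 10 genes, Jag2 and Notch3, against 16.1% of all genes tested. The 2 groups of arrays did not overlap in 3 of the 10 genes, Notch1 (brighter probe), Notch3 and Jag2, against 26.1% of all genes tested, and in 3 of the 12 probes, against 24.4% of all probes. Of the 10 changes 6 were positive and 4 negative, with a median of 0.01, which was also the median over all genes tested. In these bulk samples, fewer cells of a type and less RNA per cell cannot be told apart.

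**Figure D1:**
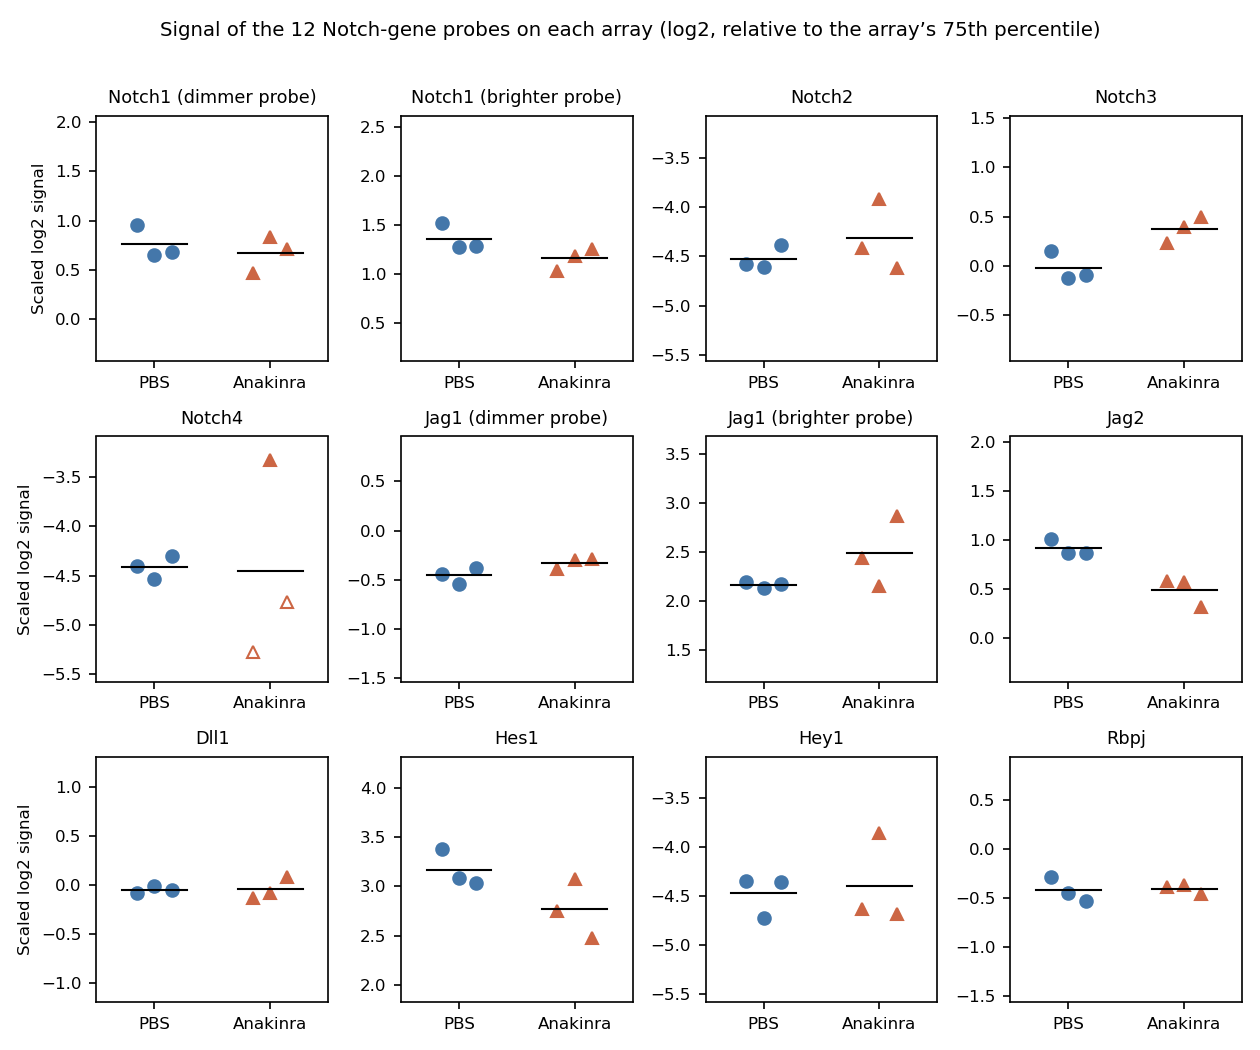
Scaled log2 signal of each of the 12 probes in the 3 PBS arrays (circles) and 3 Anakinra arrays (triangles), with the group mean as a line. Every panel spans the same number of log2 units, and open symbols mark values not well above background. The groups do not overlap for Notch3, Jag2 and the brighter Notch1 probe.

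The promoters of these genes are given as RefSeq records them on build GRCm38.p6, in windows of 250 bases before to 50 after the start. Of the 10 genes 8 were matched, with 10 windows, and Hes1 and Hey1 were not matched. Both strands were searched for 3 motifs after the values had been seen, and a match is a description of letters only. The RBPJ core TGGGAA was in 25.6% of all 32851 windows and, among the 8 genes, in Rbpj alone. The Hes N box CACNAG was in 42.5% of all windows and in Notch1, Notch2, Notch3 and Dll1. The NF-kB consensus was in 4.51% of all windows and, among the 8 genes, in Notch2 alone. No match of one motif overlapped a match of another. The 250 bases before the start are printed for Notch2 and Rbpj, the only ones with an NF-kB or an RBPJ match, in capitals.
Notch2, chr3:98013288-98013537, plus strand, NF-kB consensus in capitals: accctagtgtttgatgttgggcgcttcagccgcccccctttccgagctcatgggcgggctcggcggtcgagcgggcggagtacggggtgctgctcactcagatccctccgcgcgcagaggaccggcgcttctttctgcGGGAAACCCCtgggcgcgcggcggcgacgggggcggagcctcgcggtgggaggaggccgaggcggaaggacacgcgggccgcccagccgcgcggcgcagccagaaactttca
Rbpj, chr5:53590096-53590345, plus strand, RBPJ core on either strand in capitals: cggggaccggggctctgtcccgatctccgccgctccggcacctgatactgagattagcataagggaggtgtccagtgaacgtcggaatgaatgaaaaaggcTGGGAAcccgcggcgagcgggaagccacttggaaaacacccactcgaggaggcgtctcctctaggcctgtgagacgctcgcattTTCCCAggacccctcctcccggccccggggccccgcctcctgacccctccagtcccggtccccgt
The Notch2 match is read on both strands, and the Rbpj window holds one RBPJ core on the gene strand and one on the opposite strand. The differences of Notch2 and Rbpj themselves between the groups were 0.20 and 0.02, and neither passed the test.

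Among the receptors, Notch1 is the main receptor of the epidermis and was measured by 2 probes that adjoin each other on chromosome 2 of mouse build mm8, on the minus strand. The brighter probe, at chr2:26281319-26281378, had scaled log2 signals of 1.52, 1.28 and 1.29 in PBS 1, 2 and 3 and of 1.04, 1.19 and 1.26 in Anakinra 1, 2 and 3. The highest Anakinra value lay just below the lowest PBS value. The change was -0.20 ± 0.10 (SE, n = 3 per group, limma adjusted p = 0.425; 95% confidence interval -0.47 to 0.06). It was -0.25 on slide 1 and -0.30 on slide 2.

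The dimmer Notch1 probe, at chr2:26281261-26281319, was printed on 10 spots of each array. Its mean scaled log2 signals were 0.96, 0.65 and 0.67 in PBS against 0.46, 0.84 and 0.71 in Anakinra, and here the groups overlapped. The change was -0.09 ± 0.14 (SE, n = 3 per group, limma adjusted p over all probes = 0.836). Its 10 spots on 1 array had an SD of 0.04 to 0.10, less than the SD of 0.17 between PBS arrays and 0.19 between Anakinra arrays. Both Notch1 probes were highest on PBS 1 and lowest on Anakinra 1.

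Notch3, a receptor also known from smooth muscle of blood vessels, had 1 probe at chr17:31849609-31849668 on the minus strand of mm8. The 3 PBS arrays gave scaled log2 signals of 0.15, -0.12 and -0.10, and the Anakinra arrays gave 0.23, 0.40 and 0.50. All Anakinra values lay above all PBS values, although Anakinra 1 exceeded PBS 1 by little. The means were -0.02 ± 0.15 (SD, n = 3) in PBS and 0.37 ± 0.14 (SD, n = 3) in Anakinra. The change of 0.40 ± 0.11 (SE, n = 3 per group), or 1.32-fold, had a 95% confidence interval of 0.11 to 0.69, an unadjusted p of 0.0158 and an adjusted p of 0.190 in limma. Slide 1 alone gave 0.34 and slide 2 alone 0.30, and the fit blocked on slide gave 0.32 (adjusted p = 0.214).

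Notch2, the receptor gene whose probe lies at chr3:98232687-98232746 on the plus strand of mm8, was dim but well above background on all 6 arrays. Its scaled log2 signals were -4.57, -4.61 and -4.38 in PBS against -4.42, -3.91 and -4.62 in Anakinra. One array, Anakinra 2, stood above the other 5, and the groups overlapped. The change was 0.20 ± 0.20 (SE, n = 3 per group, limma adjusted p = 0.683; interval -0.30 to 0.71), and 0.00 without Anakinra 2.

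Notch4, a receptor best known from endothelial cells, had a probe at chr17:34196231-34196290 on the plus strand of mm8. It was well above background on all 3 PBS arrays but only on Anakinra 2 of the 3 Anakinra arrays, and it entered the test through PBS alone. Its scaled log2 signals were -4.40, -4.53 and -4.30 in PBS against -5.28, -3.32 and -4.77 in Anakinra. Anakinra 1 and 3 lay below every PBS array and Anakinra 2 above every one. The change was -0.04 ± 0.51 (SE, n = 3 per group, limma adjusted p = 0.986; interval -1.34 to 1.25), and -0.61 without Anakinra 2 (adjusted p = 0.183). This was the widest interval of the 12 probes.

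Jag2, the ligand gene with the smallest p-value of the 10 genes, had its probe at chr12:113356484-113356543 on the minus strand of mm8. In PBS it gave 1.01, 0.87 and 0.87 on the scaled log2 scale, and in Anakinra 0.59, 0.57 and 0.32. Every Anakinra array lay below every PBS array. The means were 0.92 ± 0.08 (SD, n = 3) in PBS and 0.49 ± 0.15 (SD, n = 3) in Anakinra. The change of -0.43 ± 0.10 (SE, n = 3 per group), or 1.34-fold lower, had a 95% confidence interval of -0.68 to -0.17, an unadjusted p of 0.0072 and an adjusted p of 0.131 in limma. On slide 1 it was -0.29, on slide 2 -0.57, and blocked on slide -0.43 (adjusted p = 0.288).

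Jag1, the other Jagged ligand gene, had 2 probes at different places on chromosome 2. The brighter probe, at chr2:136773138-136773197, had scaled log2 signals of 2.19, 2.14 and 2.17 in PBS and of 2.44, 2.15 and 2.86 in Anakinra. The PBS arrays lay close together, with an SD of 0.03, and the Anakinra arrays spread more, with an SD of 0.36. Anakinra 2 lay within the PBS range. The change was 0.32 ± 0.19 (SE, n = 3 per group, limma adjusted p = 0.480; interval -0.15 to 0.79), 0.48 without Anakinra 2 and 0.13 without Anakinra 3. Slide 1 gave 0.29 and slide 2 gave 0.31.

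The dimmer Jag1 probe, at chr2:136774647-136774706, had scaled log2 signals of -0.44, -0.55 and -0.38 in PBS and -0.40, -0.30 and -0.29 in Anakinra. It gave 0.13 ± 0.08 (SE, n = 3 per group, limma adjusted p over all probes = 0.521), the same sign, with overlapping groups.

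Dll1, the Delta-like ligand gene among the 10, had 1 probe on 10 spots per array at chr17:15072622-15072681, minus strand of mm8. Its mean scaled log2 signals were -0.09, -0.01 and -0.05 in PBS against -0.14, -0.08 and 0.08 in Anakinra. The groups overlapped over a narrow range. The change was 0.00 ± 0.08 (SE, n = 3 per group, limma adjusted p = 0.996), and its 95% confidence interval of -0.20 to 0.20 was the narrowest of the 10 genes.

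Rbpj, which encodes the DNA-binding partner of every Notch receptor, had its probe at chr5:53944135-53944194 on the plus strand of mm8. Its scaled log2 signals were -0.28, -0.45 and -0.53 in PBS against -0.39, -0.37 and -0.46 in Anakinra, with all Anakinra values inside the PBS range. The change was 0.02 ± 0.09 (SE, n = 3 per group, limma adjusted p = 0.968; interval -0.20 to 0.23).

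Hes1, a target gene that encodes a repressor, had a probe whose coordinates on mm8, chr16:29985644-29985939 on the plus strand, span 296 bases. The PBS arrays gave scaled log2 signals of 3.38, 3.09 and 3.04, and the Anakinra arrays 2.75, 3.07 and 2.47. Anakinra 1 and 3 lay below the PBS range, while Anakinra 2 lay between PBS 2 and PBS 3. The change was -0.41 ± 0.19 (SE, n = 3 per group, limma unadjusted p = 0.0766, adjusted p = 0.371; interval -0.87 to 0.06). It was -0.31 on slide 1 and -0.61 on slide 2. By the array left out it ran from -0.56 without Anakinra 2 to -0.26 without Anakinra 3.

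Hey1, a related repressor gene also known from blood vessels, was dim, with its probe at chr3:8646505-8646564 on the minus strand of mm8. Its scaled log2 signals were -4.35, -4.72 and -4.36 in PBS against -4.64, -3.87 and -4.68 in Anakinra. As with Notch2 and Notch4, Anakinra 2 gave the highest value of the 6 arrays. The change was 0.08 ± 0.26 (SE, n = 3 per group, limma adjusted p = 0.934; interval -0.57 to 0.73), and -0.18 without Anakinra 2. The part of the larger share of spots above background on Anakinra 2 in these dim signals was not tested.

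**Figure D2:**
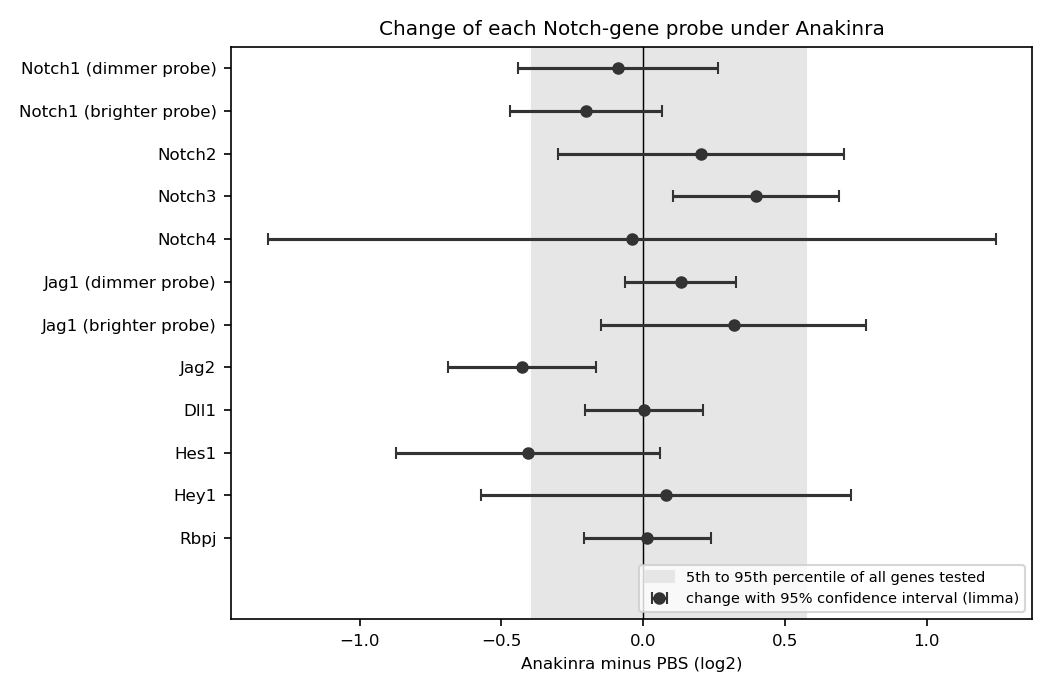
Change of each of the 12 probes (Anakinra minus PBS, log2 scale) as points, with 95% confidence intervals from limma as bars, n = 3 per group. The grey band runs from the 5th to the 95th percentile of the changes of all genes tested, -0.39 to 0.57. Only the intervals of Notch3 and Jag2 leave out 0, before adjustment over all genes.

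Because scaling moves all probes of an array together, pairs of genes of the same role were also compared within each array, which needs no scaling. These 12 pairs were chosen after the values had been seen, and each difference between probes is meaningful only as it changes between groups. Notch1 (brighter probe) minus Notch3 was 1.38, 1.40 and 1.39 in the PBS arrays and 0.81, 0.79 and 0.76 in the Anakinra arrays. The arrays of a group agreed closely, at 1.39 ± 0.01 (SD, n = 3) in PBS and 0.79 ± 0.02 (SD, n = 3) in Anakinra, and the groups lay far apart. The change was -0.60, with the smallest p that 3 arrays against 3 allow (exact permutation test, two-sided, p = 0.10; 0.24 after Benjamini-Hochberg adjustment over the 12 pairs). It was -0.59 on slide 1, -0.60 on slide 2 and -0.72 with normexp background correction, another way to subtract background. The brighter Notch1 probe was already lower, and Notch3 already higher, on every Anakinra array than on every PBS array. Their difference therefore had to separate the groups, so the permutation p of 0.10 was fixed by values already seen. With the dimmer Notch1 probe the values were 0.81, 0.77 and 0.77 in PBS against 0.23, 0.44 and 0.22 in Anakinra, a change of -0.49.

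Jag1 (brighter probe) minus Jag2 was 1.18, 1.26 and 1.30 in PBS and 1.85, 1.58 and 2.54 in Anakinra. The Anakinra arrays all lay above the PBS arrays, with Anakinra 3 farthest away. The change was 0.75, with the same exact permutation p of 0.10 (0.24 adjusted), and ran from 0.47 to 0.95 with 1 array left out. Groups also did not overlap for Jag2 minus Dll1, with a change of -0.43, for Hes1 minus Hey1, at -0.49, and for Rbpj minus Hes1, at 0.42. For Hes1 minus Hey1 the groups were barely apart, with PBS 3 at 7.395 and Anakinra 1 at 7.391. Hey1 was also dim, and highest on Anakinra 2, which a difference within an array does not remove. Of the 12 pairs 5 did not overlap, and 3 of these hold a gene already without overlap by itself (Notch1, Notch3 or Jag2), as are 26.1% of all genes tested. The share over all pairs of genes was not computed, and no pair could pass the adjusted threshold at this number of arrays. Such a difference can show only that 2 genes changed unequally, never which of them changed.

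**Figure D3:**
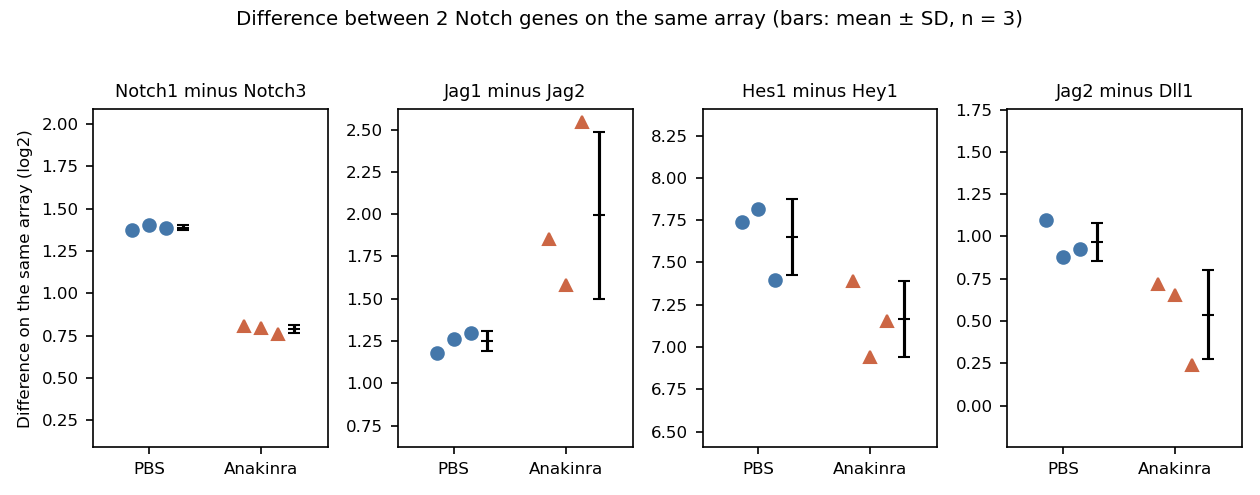
Difference in log2 signal between 2 genes on the same array, for 4 of the 5 pairs whose groups do not overlap, in the 3 PBS arrays (circles) and 3 Anakinra arrays (triangles). Bars give the mean ± SD, n = 3. Notch1 minus Notch3 has the least spread, near 1.39 in PBS and 0.79 in Anakinra. The groups of Hes1 minus Hey1 are barely apart.

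The choice of scaling adds the same amount to the change of every gene, so all 10 genes shifted together by arithmetic. With the median of each array in place of its 75th percentile, the median change over all genes tested moved from 0.01 to -0.32. Jag2 then stood at -0.76 and Hes1 at -0.74, both lower than that median, while Notch3 stood at 0.07 and Jag1 at -0.01, both higher. The signs of Notch1 (brighter probe), Notch3, Jag2 and Hes1 held under all of the processing alternatives tried, with 1 array left out and within each slide. Not all of these could turn a sign. The filters on dim probes and the replicate block left the changes themselves as they were. Median scaling moved every gene down, and the authors' table moved every gene up, so neither could turn a sign the other way. No Notch gene or probe passed in any of the 16 other settings, and the smallest adjusted p was 0.0767, for Jag2 among genes well above background on all arrays.

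**Figure D4:**
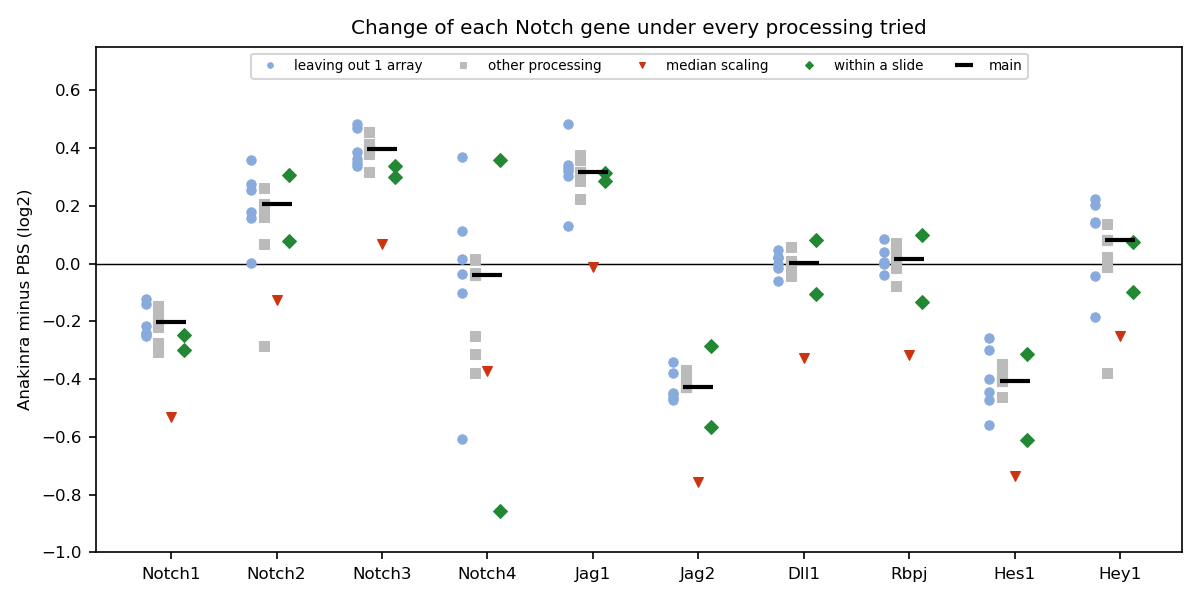
Change of each of the 10 genes (Anakinra minus PBS, log2 scale) in the main processing (black line), with 1 array left out (circles), with other processing (squares), with scaling by the array median (triangles) and within each slide (diamonds). Median scaling lies below the main value by the same amount in all 10 genes, as it shifts every gene alike. Notch1, Jag2 and Hes1 stay below 0 and Notch3 above 0 throughout, while Notch4 spreads from -0.86 to 0.37.

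Over 6 lists of other Notch pathway genes, 67 of 68 were on the array and 58 were tested, of which 3 rose, 0 fell and 55 did not pass (limma, adjusted over all genes), against 0.97% of all genes that rose and 0.8% that fell. The lists of other ligands, of receptor cleavage, of ubiquitin ligases, of RBPJ partners and of other targets held 0 calls. The tested genes of each list had a median change between -0.01 and 0.12, beside 0.01 over all genes. From each list without a call, the gene with the smallest p is given here.

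Of 5 other ligand genes only Dlk2, a non-canonical ligand, was tested, at -0.01 ± 0.09 (limma adjusted p = 0.979), while Dll3, Dll4, Dlk1 and Dner were not well above background on all arrays of either group. Of 15 genes for glycosylation and cleavage of the receptors 14 were tested, 8 with positive and 6 with negative changes. The smallest p was that of Aph1b, a gamma-secretase subunit, at 0.29 ± 0.09 (adjusted p = 0.213), whose probe may also bind its near-identical copy Aph1c. Of 11 tested genes for ubiquitin ligases and endocytosis, 7 were positive and 4 negative. Fbxw7, which marks the Notch intracellular domain for breakdown, had the smallest p, at 0.22 ± 0.06 (adjusted p = 0.189).

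All 20 listed co-activators and co-repressors of RBPJ were tested, 12 positive and 8 negative. Maml2, a co-activator of the Mastermind family, stood at -0.31 ± 0.07 (limma adjusted p = 0.120). Of 8 further targets, namely Nrarp and other Hes and Hey family genes, 5 were tested, 3 positive and 2 negative. Hes3, Hes5 and Hey2 were too dim to test, as were Mfng and Dtx1 in the lists above. Nrarp, a feedback inhibitor that Notch itself induces, stood at -0.19 ± 0.10 (adjusted p = 0.419).

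All 3 calls were among 7 epidermal genes linked to Notch in textbooks. The keratins of the differentiating layers rose, Krt1 at 2.35 ± 0.19 and Krt10 at 2.40 ± 0.26, with limma adjusted p-values of 0.0112 and 0.0206. Ivl, which encodes the cornified envelope protein involucrin, had scaled log2 signals of 3.81, 3.68 and 3.87 in PBS and 4.45, 4.43 and 4.33 in Anakinra. Its change was 0.61 ± 0.08 (SE, n = 3 per group, adjusted p = 0.0323). The cell cycle inhibitor gene Cdkn1a, at 0.12, and Trp63, which encodes the basal-layer factor p63, at -0.11, did not pass. Blocked on slide, Krt1, Krt10 and Ivl had changes of 2.32, 2.39 and 0.62, as large as without the block, but no longer passed, at limma adjusted p-values of 0.0599, 0.0939 and 0.122. None of the 3 passed without PBS 1, without PBS 2 or without Anakinra 1, and 1 of them passed without PBS 3. Ivl did not pass with median scaling either, at 0.28 (adjusted p = 0.869).

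**Figure D5:**
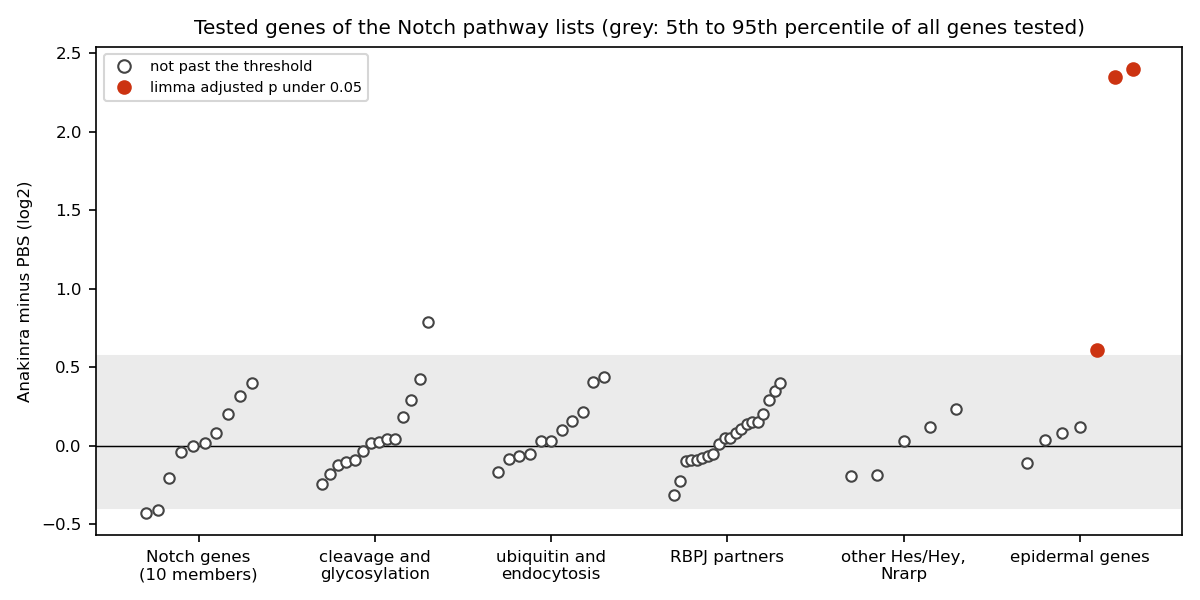
Change of each tested gene (Anakinra minus PBS, log2 scale) in the 10 Notch genes and in 5 of the 6 pathway lists, sorted within each list; the ligand list, with 1 tested gene, is not drawn. The grey band is the 5th to 95th percentile of all genes tested. Filled points passed the limma threshold, which only Ivl, Krt1 and Krt10 among the epidermal genes did.

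Several Notch genes are also known from cells other than keratinocytes, so markers of such cells were read on the same arrays. Endothelial markers had a summed linear signal, relative to the 75th percentile, of 3.46 to 3.67 in PBS and 2.48 to 3.08 in Anakinra, made up mostly of Egfl7 and Flt1. Of 6 tested endothelial markers 1 fell, Flt1, at -1.16 ± 0.10 (limma adjusted p = 0.0124), against 0.8% of all genes tested. The other 5 tested did not pass, with Kdr at -0.45, Tie1 at -0.28, Egfl7 at -0.26, Pecam1 at 0.12 and Esam at 0.20. Groups did not overlap in 3 of the 6 tested, Flt1, Kdr and Egfl7, against 26.1% of all genes tested. Kdr was dim and entered the test through PBS alone, as it was well above background on Anakinra 2 but not on Anakinra 1 or 3. Esam was highest on Anakinra 2, at -1.30 against -4.45 and -3.31 on Anakinra 1 and 3. Pecam1 was well above background on all arrays, and Cdh5 on no PBS array and 2 Anakinra arrays. Mural markers, of pericytes and smooth muscle, summed to 159 to 169 in PBS and 135 to 179 in Anakinra, with none of 7 past the threshold. Their sum was almost all Acta2, at -0.08. Cspg4 stood at 0.89 (limma adjusted p = 0.204) and Tagln at 0.61 (limma adjusted p = 0.0831). Among the 7 mural markers, these 2 had groups that did not overlap, against 26.1% of all genes tested. Myh11 stood at 0.74, Rgs5 at 0.28, Des at 0.16 and Pdgfrb at 0.07, with overlapping groups, and Rgs5 was well above background on all PBS arrays and 2 Anakinra arrays. Myh11, Rgs5 and Des were dim and entered the test through PBS alone. In each of them, Anakinra 2 gave the highest value of all arrays and Anakinra 1 the lowest.

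Fibroblast markers summed to 8.30 to 10.0 in PBS and 9.54 to 11.1 in Anakinra, made up mostly of Col1a1 and Col1a2. Of the 8 markers 2 rose, Lum and Col3a1, at 1.43 and 0.95, against 0.97% of all genes tested. Lum was dim in PBS, with scaled log2 signals of -5.17, -5.21 and -5.48, but well above background on all arrays. The other 6 did not pass, with Pdgfra at 0.64, Postn at 0.37, Col1a1 at 0.23, Col1a2 at 0.18, Dcn at -0.38 and Twist2 at -0.79. The groups did not overlap for Pdgfra, Col1a2, Dcn and Twist2 either, which with Lum and Col3a1 made 6 of the 8, against 26.1% of all genes tested. Melanocyte markers summed to 90.9 to 109 in PBS and 105 to 114 in Anakinra, with none of 8 past the threshold. All 8 had positive changes, from 0.06 to 0.41 with a median of 0.20, beside 0.01 over all genes. The groups did not overlap in 4 of the 8, against 26.1% of all genes tested. Immune markers summed to 0.70 to 0.88 in PBS and 0.57 to 1.31 in Anakinra, none of 5 tested passed, and Ptprc was well above background on 1 array of each group. Hair follicle markers summed to 415 to 499 in PBS and 426 to 451 in Anakinra, and 1 of 6 tested rose, Krt79, against 0.97% of all genes tested. Their sum was almost all Krt17, at -0.03. Among the tested ones that did not pass, the groups did not overlap for Krt15, at 0.52, and Msx2, at -0.15. With Krt79 this made 3 of 6 tested, against 26.1% of all genes tested. Every marker listed was well above background on at least 1 array. Blocked on slide, Flt1, Lum, Col3a1 and Krt79 had changes of -1.22, 1.34, 0.92 and 0.87, close to those without the block. In the blocked fit over all probes none of them passed (limma adjusted p from 0.0690 to 0.182). Their calls above came from the fit over all genes, which adjusts differently. Over all probes Col3a1 did not pass without the block either (limma adjusted p = 0.0525). The blocked fit over all genes is not given here for these markers. Markers other than Krt5, Krt14, Pecam1, Cdh5, Pdgfrb, Rgs5, Col1a1 and Ptprc were named after their values were seen, and the part of other cells in the Notch results was not tested.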

How the data were processed

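Total RNA from 6 cultures was measured on 6 one-colour Agilent arrays, labelled with Alexa-555 per the labels. Groups came from the treatment label. Per the file headers, the deposited intensity was background-subtracted by Agilent Feature Extraction 9.5.3.1 and not normalised between arrays. The authors' deposited value table holds the log2 of that intensity plus 1 constant per array and served as an alternative.

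Control spots and outlier flags were left out (4 of 180 values of these genes), spots of a probe were averaged, and no spot was saturated. A probe entered if at least 50% of its spots were well above background on all arrays of 1 group. The passing probe with the highest mean stood for a gene. Names were updated through RefSeq accessions (GRCm38.p6). Positions come from the array design (mm8), and the place of probes in exons or UTRs was not analysed here. Limma 3.58.1 under R 4.3.3 (lmFit, eBayes, two-sided, Benjamini-Hochberg, threshold 0.05) compared all 6 arrays, whose number limits the precision, and was tested on simulated data. There it recovered 6.47% of genes simulated with a log2 change of 0.5, 58.0% at 1 and 79.0% at 2. The changes of the 10 Notch genes, from -0.43 to 0.40, were all smaller than 0.5, so changes of their size would mostly be missed. The named genes are all 10 genes, and from each pathway list the called genes (at most 4) or the 1 with the smallest p. The 10 genes and the lists were chosen with earlier results of these data known. A gene of 1 list is not reported here.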

Additional observations from a re-analysis of the deposited data

How the results depend on the processing

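None of the 10 Notch genes or 12 probes passed in any setting, while counts over all genes varied. Against 160 higher and 132 lower genes, there were 8 and 49 with median scaling, 7 and 29 with no filter on dim probes, 338 and 240 with only probes above background on all arrays, and 18 and 35 with the slide as a block. With 1 array left out, between 1 and 96 genes were higher and between 7 and 136 lower. Against 152 higher and 125 lower probes, the same settings gave 11 and 66, 3 and 20, 324 and 226, and 2 and 19, and leaving out 1 array gave 0 to 83 higher and 2 to 142 lower. The 3 calls of the pathway lists became 0 with no filter and with the slide as a block, and 0 to 2 with 1 array left out.

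It is not known whether the replicate numbers pair the cultures. Deviations from the group means correlated at 0.41, -0.49 and -0.21 between arrays of the same number. Between arrays of different number they ran from -0.67 (PBS 3 with Anakinra 1) to 0.70 (PBS 3 with Anakinra 2). With 3 arrays per group such correlations cannot decide the question. With the replicate number as a block 0 genes, 0 probes and 0 genes of the pathway lists passed in either direction.

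Signs that turned were all of genes that did not pass. Under median scaling Notch2 was at -0.13, Jag1 at -0.011 (dimmer probe -0.20), Dll1 at -0.33, Hey1 at -0.25, Rbpj at -0.32, Aph1b at -0.040 and Fbxw7 at -0.11. Under quantile normalisation Notch2 was at -0.29 and Hey1 at -0.38. With normexp Hey1 was at -0.0053, Rbpj at -0.078 and Dlk2 at 0.022. In the authors' table Notch4 was at 0.016 and Dlk2 at 0.046. With the slide as a block Dll1 was at -0.011, Hey1 at -0.011, Rbpj at -0.016 and Dlk2 at 0.043, and with array weights Dll1 at -0.043 and Dlk2 at 0.020. With 1 array left out, the dimmer Notch1 probe ranged from -0.17 to 0.015, Notch4 from -0.61 to 0.37, Dll1 from -0.061 to 0.046, Hey1 from -0.18 to 0.22, Rbpj from -0.040 to 0.084 and Dlk2 from -0.070 to 0.051. Median scaling and the authors' table shift every gene by the same amount, and the cause of the other turns was not tested. The alternatives within slides and within arrays for pairs of genes carry no limma test, and the pairs were added after seeing the data. Notch4 has no value with the filter on all arrays. Signal over background limits Notch2, Notch4 and Hey1.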
